A study of Homo sapiens with 2 samples.

Results

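The genes described here encode the subunits of the proteasome and of its interferon-inducible form, the immunoproteasome, together with its activators, its inhibitor and its assembly factors. They were chosen by name: a symbol that starts with PSMA, PSMB, PSMC, PSMD, PSME, PSMF or PSMG, followed by a number and nothing else, with pseudogenes left out. Of 25702 counted features, 48 met this rule, and 46 of them had at least 10 counts over both libraries. PSMA8, an alpha subunit of testis, and PSMB11, the catalytic subunit of thymic cortical epithelium, had no count in either library, a floor of 0.252 CPM (counts per 1000000) in PAX5 cells and 0.272 CPM in control cells, which 3 counts would give. The RNA came from REH (REH-R in the labels), a human leukaemia line that grew from B-cell precursors. A library was made from cells with a tetracycline-regulated PAX5-IRES-GFP cassette and another from control cells with the IRES-GFP cassette alone, in which an internal ribosome entry site (IRES) is followed by green fluorescent protein (GFP). Both were kept in 1 µg/mL doxycycline for 3 days and sorted for GFP, so the control shares the drug, the reporter and the sort. The sources used here do not give whether either line was 1 clone. With 1 library per group no difference has a replicate check, no p-value is given, and every interval below is an exact 95% interval that covers counting error between these libraries only.

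The proteasome is the main protease of the cytosol and nucleus, and it cuts proteins tagged with ubiquitin into short peptides. Its 20S core is a barrel of alpha and beta rings, in which PSMB5, PSMB6 and PSMB7 carry the chymotrypsin-like, caspase-like and trypsin-like active sites. In lymphoid cells and after interferon gamma, newly assembled cores take up PSMB8, PSMB9 and PSMB10 in their place, and the peptides then made are favoured for loading on class I HLA molecules. The 19S particle unfolds substrates and feeds them to the core, and the PA28 and PA200 activators are other caps.

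Library totals were 11944765 counts for PAX5 cells and 10997864 counts for control cells. PAX5, the B-lineage transcription factor in the cassette, had 8319 counts in PAX5 cells and 2660 in control cells, 2.91-fold (2.78 to 3.04), so the control cells also held PAX5 transcript. All 12 markers of B-cell precursors had at least 10 counts, and 5 lay above 0 and 3 below on the log2 scale (PAX5 over control). CD79B (0.42) and MME (0.76) were among those above, and the 3 below were DNTT (-0.19), IGLL1 (-0.26) and RAG1 (-0.09). Markers of other cell types were low. The 8 myeloid markers summed to 26.8 CPM in PAX5 cells and 35.3 CPM in control cells, with FCGR3A, S100A8 and S100A9 at 0. The 6 T-cell markers summed to 0 counts in PAX5 cells and 1 count in control cells, and among 6 dendritic-cell markers all but IL3RA were at 0. The 4 markers of stroma and epithelium summed to 9.67 CPM in PAX5 cells and 8.51 CPM in control cells, nearly all of it COL1A1, with EPCAM and KRT18 at 0. In bulk RNA of this kind, fewer cells with a transcript and less transcript per cell cannot be told apart.

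Promoter sequences are shown for 4 genes that the results return to. PSMB9 and the peptide transporter gene TAP1 start 488 bases apart on opposite strands and had ratios on opposite sides of 0, that of PSMB9 only before length is taken into account, and PSMB10 and PSME2 had the lowest ratios among the abundant proteasome genes. TAP1 is not a proteasome gene and was chosen after its values were seen. RefSeq also gives TAP1 another start, chr6:32852761, farther from PSMB9. The distance and the sequence shown belong to the start nearer PSMB9. The sequences are the 250 bases before the start in RefSeq (GRCh38.p14), written 5′ to 3′ on the gene's strand. They lie at chr6:32853942-32854191 (plus strand) for PSMB9, chr6:32853705-32853954 (minus strand) for TAP1, chr16:67936851-67937100 (minus strand) for PSMB10 and chr14:24146611-24146860 (minus strand) for PSME2. Capitals mark matches on either strand to TGACNNNGC, the core of the antioxidant response element read by NRF1 and NRF2, or to the core of the interferon-stimulated response element (ISRE), searched as GAAA and GAAA with any 2 bases between them.
PSMB9: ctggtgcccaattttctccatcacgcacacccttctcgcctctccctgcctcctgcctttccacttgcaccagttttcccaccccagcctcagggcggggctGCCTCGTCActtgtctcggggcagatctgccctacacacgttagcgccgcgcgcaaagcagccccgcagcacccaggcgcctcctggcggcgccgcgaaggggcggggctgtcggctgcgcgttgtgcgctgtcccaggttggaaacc
TAP1: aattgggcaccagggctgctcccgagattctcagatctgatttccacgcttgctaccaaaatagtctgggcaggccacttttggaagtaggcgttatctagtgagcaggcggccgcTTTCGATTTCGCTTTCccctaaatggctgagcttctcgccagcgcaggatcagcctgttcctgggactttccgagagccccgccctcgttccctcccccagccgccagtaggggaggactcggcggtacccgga
PSMB10: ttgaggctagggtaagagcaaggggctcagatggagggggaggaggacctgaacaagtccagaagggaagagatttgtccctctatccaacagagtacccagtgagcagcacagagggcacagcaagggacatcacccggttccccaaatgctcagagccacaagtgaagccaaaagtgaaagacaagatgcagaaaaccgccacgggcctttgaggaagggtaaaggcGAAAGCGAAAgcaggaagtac
PSME2: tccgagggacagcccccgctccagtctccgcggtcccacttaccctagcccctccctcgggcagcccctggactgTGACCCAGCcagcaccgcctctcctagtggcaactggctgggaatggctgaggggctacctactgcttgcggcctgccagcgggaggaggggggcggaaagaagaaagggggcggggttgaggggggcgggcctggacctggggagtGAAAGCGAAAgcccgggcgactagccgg

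In PSMB9 the match is to TGACNNNGC, 148 bases before the start. The capitals of TAP1 hold overlapping matches to the ISRE core, at 134 and 128 bases before the start. PSMB9 starts 488 bases away on the opposite strand, so these matches also lie upstream of PSMB9, beyond its 250-base window. Likewise, the PSMB9 match lies upstream of TAP1, beyond the TAP1 window. The windows therefore do not show that either gene lacks the match of the other. PSMB10 has the ISRE core at 21 bases before the start, and PSME2 has TGACNNNGC at 175 and the ISRE core at 28 bases before it. RefSeq windows of 250 bases before to 50 after the start were at hand for 42 of the 48 genes, as 51 windows. PSMA7, PSMB1, PSMB6, PSMB7, PSMD4 and PSMG3 had none. TGACNNNGC was found on either strand in 15 of the 51 windows (29.4%), against 13.3% of all 35116 windows. The ISRE core was in 7 (13.7%), against 3.57% of all, and the windows belonged to PSMA4, PSMB4, PSMB8, PSMB10, PSME1, PSME2 and PSMG4. TTCNNNGAA, the gamma-activated site, was in 8 (15.7%), against 7.66% of all. These are matches of letters only, and binding was not measured.

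The first question was whether the level of proteasome transcripts differed between PAX5 cells and control cells. No proteasome gene differed by as much as 2-fold, and the largest ratio in either direction was 1.38-fold. The ratios lay mostly a little below 0 on the log2 scale (PAX5 over control), with a median of -0.13 over the 46 genes and a range of -0.46 to 0.25, against a median of -0.0067 over all 13532 features with at least 10 counts. Together the proteasome genes had 72221 counts in PAX5 cells, 0.605% of the total, and 73629 in control cells, 0.669%. The ratio of these sums was -0.13 on the log2 scale (-0.15 to -0.12).

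By the rule of size, a bound at or beyond 2-fold, 0 of 46 genes were higher, against 1.34% of all features, and 0 were lower, against 0.0517%. With a bound of 25% (PAX5 over control for higher genes, control over PAX5 for lower ones), PSMB10 alone was lower, against 1.55% of all features, and none was higher, against 4.84%. The whole counting interval lay below 0 for 24 of the 46 genes, against 16.8% of all features. It lay above 0 for 1 gene, PSME4, against 18.7%, and spanned 0 for the other 21. Abundant genes have narrow intervals, and 42 of the 46 had at least 1000 counts over both libraries. Of these, 23 lay below 0 and 1 above, whereas among all 5339 features with that many counts 25% lay below and 28.7% above. The median size of the log2 ratio was 0.14 for the proteasome genes, and 0.13 for all features with at least 1000 counts.

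**Figure D1:**
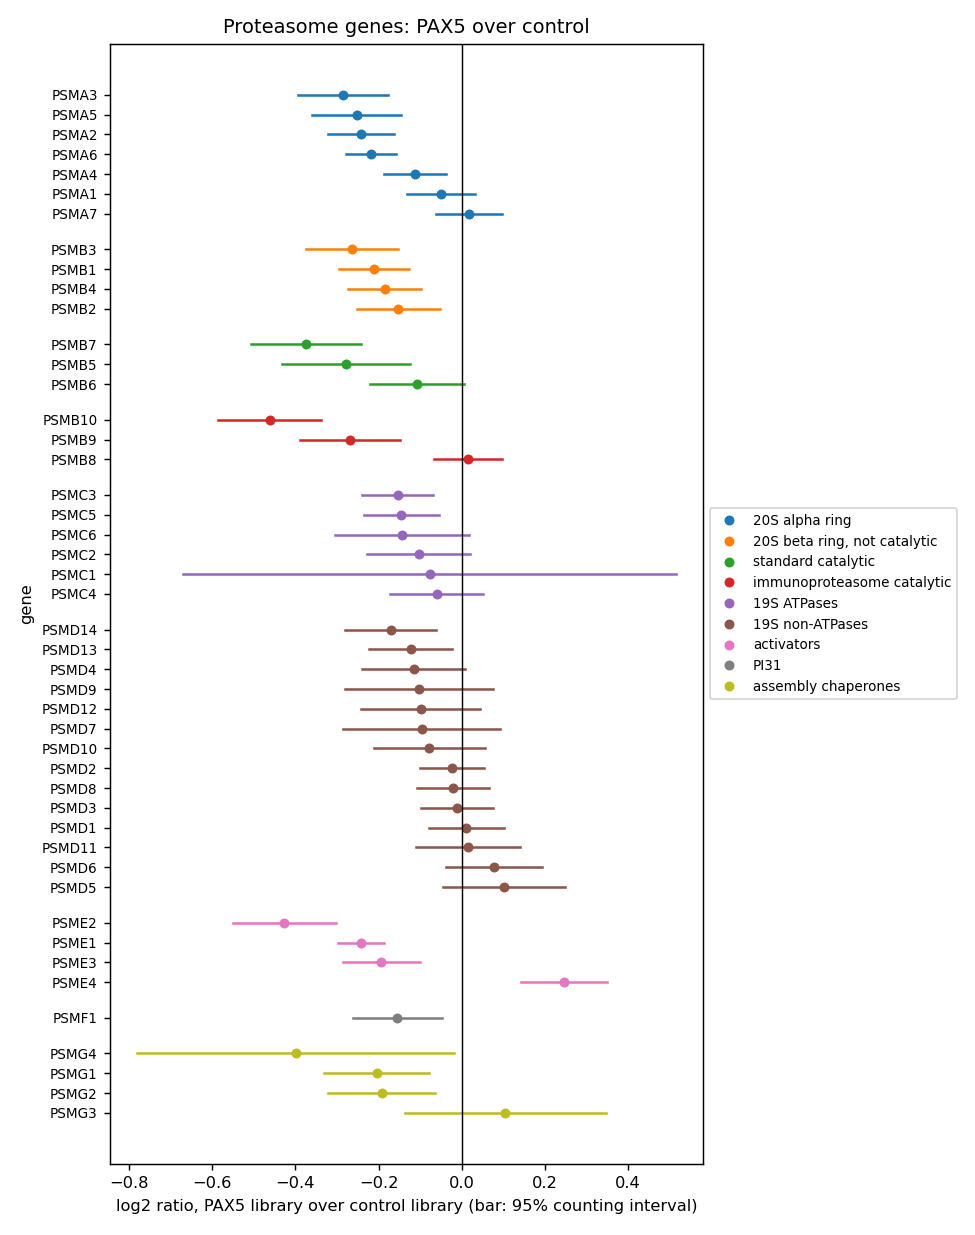
Log2 ratio (PAX5 library over control library, x axis) of each of the 46 proteasome genes with at least 10 counts, grouped and coloured by role down the page. Points are ratios and bars are exact 95% counting intervals, with 1 library per group. Most points lie between -0.3 and 0.1, PSMB10 is lowest at -0.46, and PSME4 alone has its whole interval above 0.

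Ratios also ran with gene length. In 10 equal groups of all features by length, the median log2 ratio was -0.21 in the shortest group (43 to 1142 bases) and 0.19 in the longest (6542 bases and more). Spearman's rho between length and log2 ratio was 0.34 over 13489 features and 0.58 over the 46 proteasome genes, given as a description, since the points come from the same pair of libraries. Proteasome genes are mostly short. In the shortest group, 15 of them had at least 1000 counts and 13 of these lay below 0 (86.7%), against 78.6% of all 350 such features, while 2% of those features lay above. In the second group (1142 to 1617 bases) 6 of 14 lay below 0 (42.9%), against 51.2% of 418 features, with 8.85% above. When each ratio was taken relative to the median of its length group, the median of the proteasome genes was -0.0061. Genes with intervals below 0 then numbered 8, and 5 lay above. The 8 were PSMB10 (-0.25), PSME2 (-0.22), PSMF1 (-0.19), PSME3 (-0.18), PSMB7 (-0.17), PSMB5 (-0.16), PSME1 (-0.13) and PSMA2 (-0.13). The 5 were PSMA7 (0.23), PSMD6 (0.19), PSMD11 (0.13), PSMB8 (0.10) and PSMD8 (0.09). The source of the length trend was not tested.

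**Figure D2:**
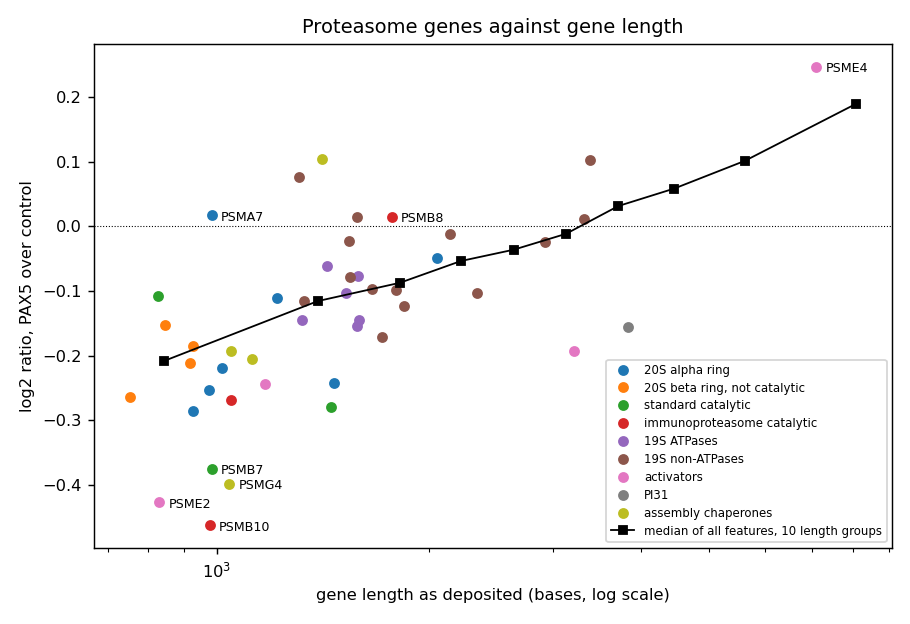
Log2 ratio (PAX5 over control, y axis) of each proteasome gene against its deposited length in bases (x axis, log scale), coloured by role. Black squares joined by a line are the medians of all features in 10 equal length groups, which run from -0.21 to 0.19. Most proteasome genes lie near this line, with PSMA7 among those above it and PSMB10, PSME2, PSME3 and PSMF1 among those below it.

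The catalytic subunits were set against each other next: whether the balance between the immunoproteasome genes and the standard genes they replace differed. The immunoproteasome genes were abundant in both libraries. Levels between genes are given in RPKM (counts per kilobase of deposited length per 1000000 counts). PSMB8 (Entrez 5696), whose product takes the place of PSMB5, had 2572 counts or 122 RPKM in PAX5 cells and 2366 counts or 121 RPKM in control cells, a log2 ratio of 0.01 (-0.07 to 0.10). PSMB9 (Entrez 5698), which replaces PSMB6, had 1077 counts or 86.4 RPKM in PAX5 cells and 1205 counts or 104 RPKM in control cells, a log2 ratio of -0.27 (-0.39 to -0.15). PSMB10 (Entrez 5699), which replaces PSMB7, had 961 counts or 82.6 RPKM in PAX5 cells and 1230 counts or 114 RPKM in control cells, a log2 ratio of -0.46 (-0.59 to -0.34). PSMB8 was thus level between the libraries within its counting interval, while PSMB9 and PSMB10 were lower in PAX5 cells. Measured against PSMB8 in the same libraries, which needs no scaling, PSMB9 differed by -0.28 on the log2 scale (-0.43 to -0.14) and PSMB10 by -0.48 (-0.62 to -0.33). Relative to their length groups PSMB8 was at 0.10, PSMB9 at -0.06, with an interval that spanned 0, and PSMB10 at -0.25.

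Of the standard genes, PSMB5 had 660 counts or 38.2 RPKM in PAX5 cells and 744 counts or 46.3 RPKM in control cells, a log2 ratio of -0.28 (-0.43 to -0.13). PSMB6 had 1266 counts or 129 RPKM in PAX5 cells and 1268 counts or 139 RPKM in control cells, a log2 ratio of -0.11 (-0.22 to 0.01). PSMB7 had 849 counts or 72.6 RPKM in PAX5 cells and 1023 counts or 94.1 RPKM in control cells, a log2 ratio of -0.37 (-0.51 to -0.24). In both libraries PSMB5 had the lowest level of the 6 catalytic genes and PSMB6 the highest, with PSMB8 close to it. Summed counts of the immunoproteasome genes differed by -0.16 on the log2 scale (-0.22 to -0.11) and those of the standard genes by -0.24 (-0.31 to -0.16).

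The share of immunoproteasome counts within each pair does not depend on how the libraries are scaled. PSMB8 made up 79.6% of the counts of PSMB8 and PSMB5 in PAX5 cells (78.1 to 81.0, Clopper-Pearson) and 76.1% in control cells (74.5 to 77.6). Per kilobase, PSMB8 was 3.20 times PSMB5 in PAX5 cells and 2.61 times in control cells, and the ratio between the libraries was 1.23-fold (1.09 to 1.38). PSMB9 made up 45.97% of its pair with PSMB6 in PAX5 cells (43.9 to 48.0) and 48.7% in control cells (46.7 to 50.7), a log2 difference of -0.16 (-0.33 to 0.01). PSMB10 made up 53.1% of its pair with PSMB7 in PAX5 cells (50.8 to 55.4) and 54.6% in control cells (52.5 to 56.7), a log2 difference of -0.09 (-0.27 to 0.09). Only in the pair of PSMB8 and PSMB5 did the interval of the difference exclude 0, and PSMB5 and PSMB8 also differ in length (1454 and 1773 bases). With an assumed biological coefficient of variation of 0.1 in each library that interval spanned 0 as well (-0.30 to 0.88). Over all 3 pairs the immunoproteasome share was 62.4% in PAX5 cells (61.3 to 63.5) and 61.3% in control cells (60.2 to 62.3), a log2 difference of 0.07 (-0.02 to 0.17). Per kilobase the share was 54.84% in PAX5 cells and 54.79% in control cells, a log2 difference of 0.0027. PSMB8 overlaps PSMB8-AS1, an antisense RNA gene with 265 counts in PAX5 cells and 213 in control cells, and without a known strand setting their reads cannot be told apart.

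**Figure D3:**
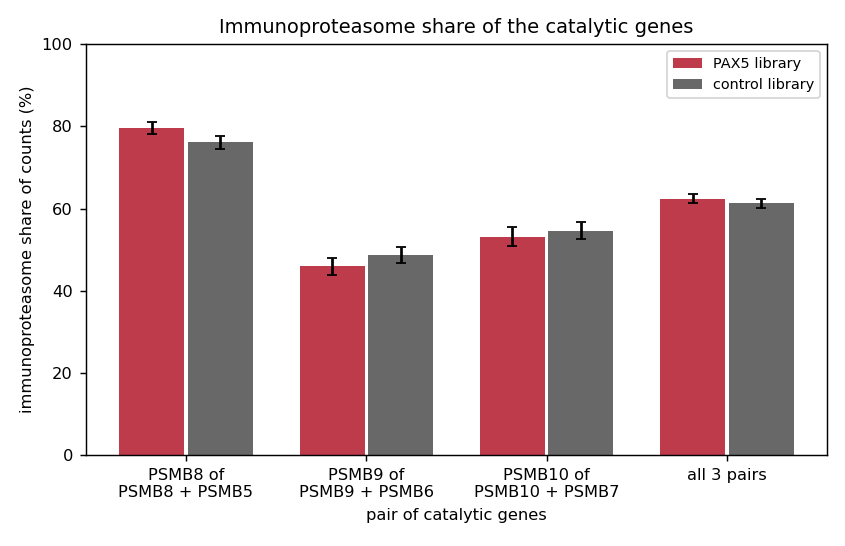
Immunoproteasome share of counts (y axis, percent) in each pair of catalytic genes and in all 3 pairs together, with the PAX5 library left of the control library in each pair of bars. Error bars are 95% Clopper-Pearson intervals, which cover counting error only. The share of PSMB8 is 79.6% in PAX5 cells and 76.1% in control cells, and the bars of the other pairs differ by less than 3 percentage points.

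The structural subunits of the core were among the most abundant proteasome transcripts. Of the 7 alpha-ring genes, which form the gated outer rings, 5 lay below 0, with a median log2 ratio of -0.22. Of all features with at least 1000 counts 25% lay below 0, and 78.6% of those in the shortest length group. PSMA3, PSMA5, PSMA6 and PSMA7 belong to that group. PSMA6 had the highest level of the ring, 4310 counts or 356 RPKM in PAX5 cells and 4662 counts or 414 RPKM in control cells, a log2 ratio of -0.22 (-0.28 to -0.16). PSMA3 had the lowest ratio, with 1336 counts in PAX5 cells and 1513 in control cells, -0.29 (-0.39 to -0.18). PSMA5 was close to it, with 1333 counts in PAX5 cells and 1476 in control cells (-0.25), as was PSMA2, with 2474 in PAX5 cells and 2718 in control cells (-0.24). PSMA4 had 2912 counts in PAX5 cells and 2923 in control cells, -0.11 (-0.19 to -0.04). PSMA1 and PSMA7 spanned 0. PSMA1 had 2485 counts in PAX5 cells and 2389 in control cells (-0.05), and PSMA7 had 2762 in PAX5 cells and 2536 in control cells (0.02). Relative to their length groups the median of the ring was -0.011. PSMA2 then lay below 0 (-0.13), PSMA7 above (0.23, 0.15 to 0.30), and the others spanned 0. Although each alpha subunit takes 1 place per ring, the highest level in the ring was 3.50 times the lowest in PAX5 cells and 3.94 times in control cells.

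The 4 beta-ring genes without an active site all lay below 0, at a median of -0.20. PSMB3 had 1287 counts in PAX5 cells and 1436 in control cells (-0.26), PSMB1 had 2229 in PAX5 cells and 2397 in control cells (-0.21), PSMB4 had 2009 in PAX5 cells and 2123 in control cells (-0.19), and PSMB2 had 1626 in PAX5 cells and 1679 in control cells (-0.15). Their levels were close to one another, at 144 to 204 RPKM in PAX5 cells and 172 to 237 RPKM in control cells. All 4 are under 1000 bases long, and relative to their length group PSMB2 was at 0.06, PSMB4 at 0.02, PSMB1 at -0.0027 and PSMB3 at -0.06, each with an interval that spanned 0.

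**Figure D4:**
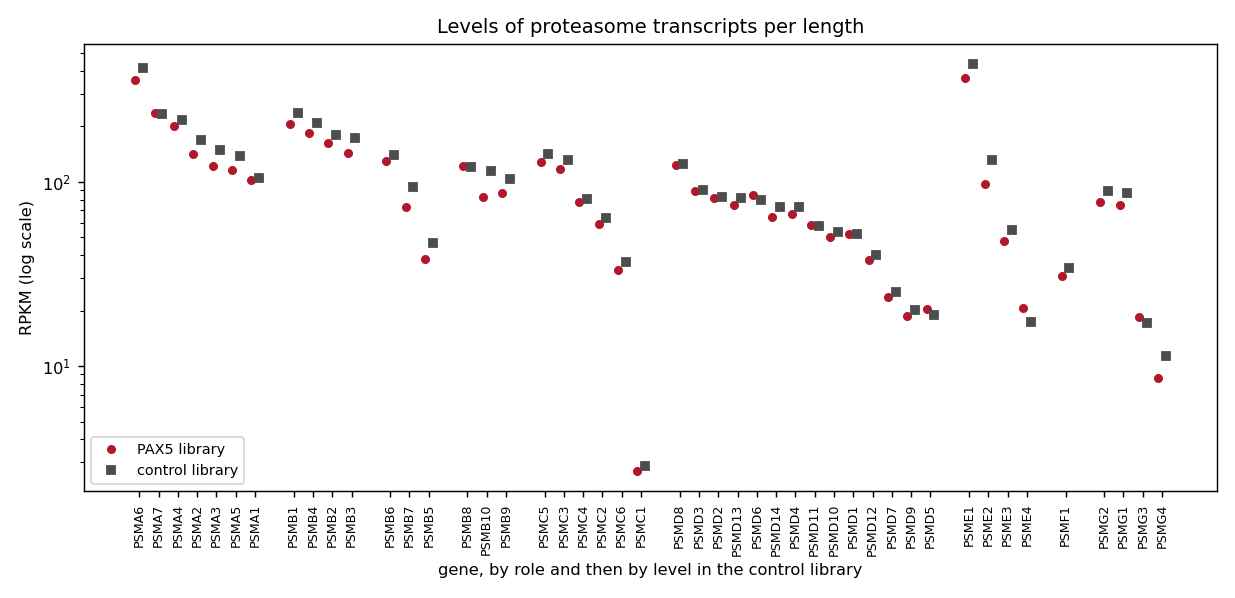
Level of each of the 46 proteasome genes with at least 10 counts in RPKM (y axis, log scale), with the PAX5 library as circles left of the control library as squares, 1 library each, grouped by role along the x axis. PSME1 and PSMA6 are highest in both libraries. PSMC1 is lowest, near 3 RPKM.

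The 20 genes named PSMC or PSMD, here called the 19S genes, differed less than the core. They include the assembly chaperones PSMD5, PSMD9 and PSMD10, and leave out subunits with other names, such as SEM1 (-0.51). Of these 20 genes 4 lay below 0 and 16 spanned it, with a median of -0.09. Of the 17 core genes 13 lay below 0, with a median of -0.22. Of all features, 16.8% lay below 0, or 25% of those with at least 1000 counts, so the 19S share was near that of all features, length apart. Most core genes lie in the shortest length group, where 78.6% of features with at least 1000 counts lay below 0. No 19S gene lies there, and in the second group 51.2% of such features lay below 0. Summed counts were 32148 for the core and 26664 for the 19S genes in PAX5 cells. In control cells they were 33688 for the core and 25886 for the 19S genes. The core thus differed by -0.11 on the log2 scale (-0.14 to -0.08) relative to the 19S genes. The core genes have a median length of 984 bases and the 19S genes one of 1590 bases. Relative to their length groups the medians were -0.011 for the core and 0.0061 for the 19S genes. In level per length the median core gene stood at 129 RPKM in PAX5 cells and 148 RPKM in control cells, which was 2.09 times the median 19S gene in PAX5 cells and 2.17 times in control cells.

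Among the 6 ATPases that form the unfolding ring, PSMC3 and PSMC5 lay below 0. PSMC3 had 2211 counts in PAX5 cells and 2286 in control cells, -0.15 (-0.24 to -0.07), and PSMC5 had 2004 in PAX5 cells and 2059 in control cells, -0.14 (-0.23 to -0.06). The others spanned 0: PSMC6 with 628 in PAX5 cells and 645 in control cells (-0.14), PSMC2 with 1070 in PAX5 cells and 1068 in control cells (-0.10) and PSMC4 with 1326 in PAX5 cells and 1285 in control cells (-0.06). PSMC1 stood far below the rest, with 51 counts or 2.70 RPKM in PAX5 cells and 50 counts or 2.85 RPKM in control cells, although the 6 ATPases occupy 1 place each in the ring. The median of the other 5 was 28.7 times higher in PAX5 cells and 28.4 times higher in control cells. In GENCODE transcripts, 82.8% of the 50-base words of PSMC1 also occur in 11 other genes, pseudogenes of PSMC1 among them, and 44.2% occur in NRDE2, which overlaps it and had 316 counts in PAX5 cells and 242 in control cells. The part of these shared words in the low count was not tested.

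The 14 non-ATPase genes had a median of -0.05, and 2 lay below 0. PSMD14, the deubiquitinase that removes ubiquitin chains from substrates, had 1319 counts in PAX5 cells and 1380 in control cells, -0.17 (-0.28 to -0.06). PSMD13, a lid subunit, had 1639 in PAX5 cells and 1658 in control cells, -0.12 (-0.22 to -0.02). The ubiquitin receptor PSMD4 had the next lowest ratio, with 1063 in PAX5 cells and 1070 in control cells (-0.12), and its interval spanned 0. The highest ratios were those of PSMD5, an assembly chaperone of the 19S base, with 819 counts in PAX5 cells and 709 in control cells (0.10), and of the lid subunits PSMD6, with 1310 in PAX5 cells and 1154 in control cells (0.08), and PSMD11, with 1095 in PAX5 cells and 1007 in control cells (0.01). All 3 intervals spanned 0. The other 8, the scaffold subunits PSMD1 and PSMD2, the lid subunits PSMD3, PSMD7, PSMD8 and PSMD12, and the chaperones PSMD9 and PSMD10, lay between -0.10 and 0.01, and each spanned 0.

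The activators spread over most of the proteasome range. PSME1 and PSME2 encode the alpha and beta chains of PA28, the interferon-inducible cap that works with the immunoproteasome. PSME1 was the most abundant proteasome gene per length, with 5096 counts or 366 RPKM in PAX5 cells and 5604 counts or 434 RPKM in control cells, -0.24 (-0.30 to -0.19). PSME2 had 957 counts or 97.1 RPKM in PAX5 cells and 1195 counts or 130 RPKM in control cells, -0.43 (-0.55 to -0.30), the second lowest ratio of all after PSMB10. Although PA28 joins both chains in 1 ring, the PSME1 level was 3.77 times that of PSME2 in PAX5 cells and 3.32 times in control cells, and this ratio differed by 0.18 on the log2 scale (0.05 to 0.32). The genes lie in different length groups, relative to which PSME1 was at -0.13 and PSME2 at -0.22, a gap smaller than the 0.18 before centring. Of the 50-base words of PSME2, 17.8% occur in 4 other genes, and their part was not tested. PSME3, the nuclear PA28 gamma, had 1832 counts in PAX5 cells and 1946 in control cells, -0.19 (-0.29 to -0.10), and is long enough (3212 bases) that its length group has a median of -0.01. PSME4, which encodes the nuclear activator PA200, had 1734 counts or 20.5 RPKM in PAX5 cells and 1358 counts or 17.3 RPKM in control cells, 0.25 (0.14 to 0.35). It is also the longest proteasome gene, at 7099 bases, and relative to its length group it was at 0.06.

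PSMF1, which encodes the proteasome inhibitor PI31, had 1402 counts in PAX5 cells and 1451 in control cells, -0.16 (-0.26 to -0.05), in a length group with a median of 0.03. Of the assembly chaperones, PSMG1 and PSMG2, which form the dimer that starts the alpha ring, had nearly the same ratio. PSMG1 had 1004 counts in PAX5 cells and 1075 in control cells, -0.20 (-0.33 to -0.08), and PSMG2 had 968 in PAX5 cells and 1028 in control cells, -0.19 (-0.32 to -0.06). Their partners in the second dimer were the least abundant chaperones. PSMG3 had 309 counts in PAX5 cells and 267 in control cells, 0.10 (-0.14 to 0.35), and PSMG4 had 107 in PAX5 cells and 131 in control cells, -0.40 (-0.78 to -0.02), with the widest interval but that of PSMC1.

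The order of the proteasome genes by level was nearly the same in both libraries. Spearman's rho of RPKM between the PAX5 library and the control library was 0.99 over the 46 genes, 21 kept their rank, and the largest change of rank was 7 places, that of PSMB7 and PSMD6. The genes lie on 17 chromosomes, and PSMB8 and PSMB9 lie close to each other on chromosome 6. Words of 50 bases shared with genes elsewhere in the genome reached 10% of the transcript for 6 genes, PSMC1, PSMC6 (34.3%), PSMA6 (24.6%), PSMD4 (19.5%), PSME2 and PSMD2 (11.2%), and were 0 for 33. Words shared with a GENCODE gene that overlaps them reached 10% for 10 genes, PSMA1 (44.5%), PSMA2 (51.0%), PSMA6 (80.2%), PSMB8 (28.9%), PSMB9 (12.1%), PSMB10 (38.9%), PSMC1, PSMD7 (46.1%), PSMD9 (26.0%) and PSMD13 (13.7%). In all, 24 of the 48 genes shared no word with either. Where words are shared, reads could have been split or lost and the levels are uncertain. Another 6 genes have symbols that start alike but go on with other letters, and were counted in no summary. PSMC3IP, PSME3IP1 and the antisense RNAs PSMA3-AS1, PSMB8-AS1, PSMD6-AS2 and PSMG3-AS1 had log2 ratios between -0.05 and 0.21, and all 6 intervals spanned 0.

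Genes that work next to the proteasome were set beside it, and their counts are read against all features, of which 18.7% lay above 0 and 16.8% below, or 28.7% above and 25% below among those with at least 1000 counts. Of 12 accessory genes 5 lay below 0 and 0 above, with a median of -0.04. SEM1, a small 19S subunit, had 771 counts in PAX5 cells and 1022 in control cells, -0.51 (-0.65 to -0.38), lower than any proteasome gene. Its deposited length of 498 bases is shorter than that of any of them. Relative to its length group SEM1 was at -0.30, and PSMB10, the lowest proteasome gene by that measure, at -0.25. The chaperone POMP, which completes the core and its immunoproteasome form, had 1664 counts in PAX5 cells and 1813 in control cells (-0.23). Among 16 genes of ubiquitin and substrate delivery 3 lay above 0 and 6 below. Among 8 peptidases that trim proteasome products 0 lay above and 2 below. Of the 16 genes 15 had at least 1000 counts, and of the 8 peptidases 7, so the shares among such features are the closer ones. Against these the 3 of 16 above were a smaller share and the 2 of 8 below a similar one. The 6 of 16 below were a larger share, and the 0 of 8 above a smaller one, in lists of few genes. Of 10 genes of the NRF1 pathway, which restores proteasome transcripts when the protease is inhibited, 1 lay above 0 and 2 below. Its transcription factor NFE2L1 (NRF1) had 1844 counts in PAX5 cells and 1608 in control cells (0.09) and NFE2L2 (NRF2) had 1138 in PAX5 cells and 1013 in control cells (0.06), with intervals that spanned 0.

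Immunoproteasome and PA28 genes are commonly induced together with the class I loading genes, and here the 2 sets of ratios differed. Of 16 class I loading genes 9 lay above 0, against 18.7% of all features, and 1, the loading factor TAPBP at -0.18, lay below, against 16.8%, with a median log2 ratio of 0.19. Of the 14 with at least 1000 counts 8 lay above and 1 below, against 28.7% and 25% of all such features. Of PSMB8, PSMB9, PSMB10, PSME1 and PSME2, none lay above and 4 below. Relative to their length groups, however, PSMB8 lay above 0 (0.10, 0.02 to 0.18), on the side of the class I genes, PSMB9 spanned 0, and PSMB10, PSME1 and PSME2 lay below. NLRC5, which switches on class I genes, had 592 counts in PAX5 cells and 217 in control cells, 1.34 (1.12 to 1.57). HLA-B had 20958 counts in PAX5 cells and 15116 in control cells, 0.37 (0.34 to 0.40). TAP1, whose start is beside that of PSMB9, had 1053 counts in PAX5 cells and 769 in control cells, 0.35 (0.21 to 0.48), while PSMB9 was at -0.27, or at -0.06 relative to its length group. Centred in this way the class I list had a median of 0.27. PSMB8, PSMB9 and PSMB10 had one of -0.06, and the PA28 genes were at -0.13 (PSME1) and -0.22 (PSME2).

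**Figure D5:**
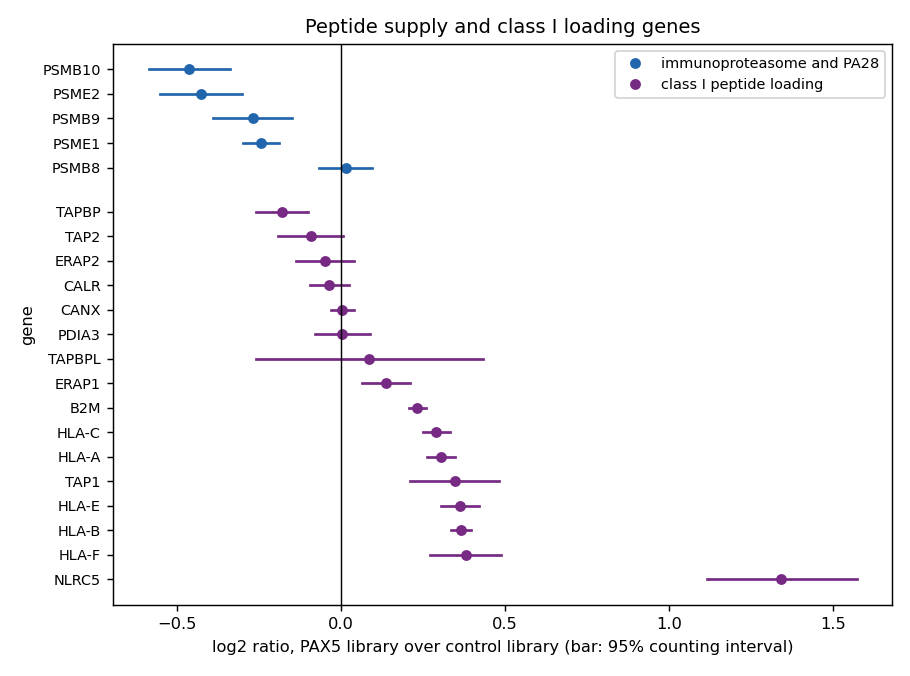
Log2 ratio (PAX5 library over control library, x axis) of the immunoproteasome and PA28 genes, upper block in blue, and of the 16 class I loading genes, lower block in purple. Points are ratios and bars exact 95% counting intervals, 1 library per group. The upper block lies between -0.46 and 0.01, and 9 genes of the lower block, from ERAP1 at 0.14 to NLRC5 at 1.34, have intervals above 0.

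The interferon gamma pathway, the usual inducer of PSMB8, PSMB9, PSMB10 and PA28, gave mixed values. Of its 17 listed genes 13 had at least 10 counts, of which 5 lay above 0, against 18.7% of all features, and 2 below, against 16.8%. Of the 8 with at least 1000 counts 4 lay above and 2 below, against 28.7% and 25% of all such features. IRF8 had 393 counts in PAX5 cells and 178 in control cells (1.04), GBP4 had 924 in PAX5 cells and 545 in control cells (0.66), and IRF2 had 1450 in PAX5 cells and 985 in control cells (0.45). IRF1, a transcription factor of immunoproteasome promoters, had 1564 counts in PAX5 cells and 1783 in control cells, -0.29 (-0.39 to -0.20). Its part in the ratios of the immunoproteasome, PA28 and class I genes was not tested. CXCL10, IDO1 and GBP5, which respond strongly to interferon gamma, had 0 counts in both libraries. Proteins, proteasome assembly and peptidase activity were not measured.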

How the data were processed

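RNA of sorted REH cells (QIAGEN RNeasy) was made into NEBNext Ultra libraries, per the labels. The authors deposited raw counts per gene with an Entrez number and a length, counted by featureCounts on GRCh37 (hg19) according to the submitters' processing notes. Aligner, strand setting and multi-mapping rule: not given in the sources used here. The series table and the single-library files held the same 51404 values.

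Symbols came from RefSeq (GRCh38.p14) by Entrez number, for 23696 of 25702 features. Members and lists were chosen with earlier results of these data known. Libraries were scaled by TMM (edgeR 4.0.16, R 4.3.3) on features with at least 10 summed counts, with factors of 0.9954 for PAX5 and 1.0046 for control. Ratios carry Clopper-Pearson 95% intervals conditional on summed counts (scipy 1.17.1), and ratios of pairs have exact conditional odds-ratio intervals. Because PCR copies are not separate molecules, intervals and floors (3 counts) cover counting error only. The calculation was tested on simulated data.

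Genes named are PSMB5 to PSMB11, PSMA8, PSME1 to PSME4, PSMF1, PSMG1 to PSMG4, the 3 lowest and 3 highest ratios in each other group, genes of the related lists past a 25% bound, and the transcription factors NFE2L1, NFE2L2, IRF1 and NLRC5. Some genes of the lists are counted but not reported here by name. Other genes with values were added after their values were seen. For shared words, the coding transcript nearest the deposited length was compared, on both strands, with GENCODE v29 transcripts of other genes. Alternatives were scaling by total counts, DESeq2 1.42.0 size factors or upper quartiles, other count minimums and bounds, centring on length or on length and GC content, shares per kilobase, and an assumed biological coefficient of variation.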

Additional observations from a re-analysis of the deposited data

How the results depend on the processing

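Genes with intervals below 0 numbered 26 when scaled by total counts, 24 by DESeq2 size factors and 28 by upper-quartile factors, and 24 with no count minimum or one of 50, with 1 above in each. The medians were -0.15, -0.12 and -0.16 under these scalings. The interval of PSMB8 spanned 0 under all 3, with a ratio of -0.017 under upper-quartile factors. No gene passed a 1.5-fold bound. Centred on length, 8 genes had intervals below 0 and 5 above, those named with the length trend. The median was -0.0061, the immunoproteasome sum -0.020 and the standard sum -0.049. Apart from these, some genes with intervals below 0 before centring changed the sign of their ratio, with intervals that then spanned 0. They were PSMA4 (0.0040), PSMB2 (0.056), PSMB4 (0.022), PSMG1 (0.0035) and PSMG2 (0.015). Centred on length and GC content, 9 had intervals below 0 and 5 above, the latter PSMA7, PSMD6, PSMB8, PSMB6 and PSMD8. The median was -0.0046, the immunoproteasome sum 0.011, on the other side of 0, and the standard sum -0.024. Here the genes that changed sign, again with intervals that then spanned 0, were PSMA4 (0.033), PSMB2 (0.057), PSMB4 (0.056), PSMC3 (0.0029) and PSMG2 (0.049). With an assumed biological coefficient of variation of 0.1, only PSMB10 and PSME2 lay below 0 (2 genes) and 0 above, and the interval of the pair of PSMB8 and PSMB5 spanned 0 (-0.30 to 0.88). At a bound of 25% 1 gene passed, PSMB10. The cause of these differences was not tested. Another 2 alternatives were chosen after seeing the data. Leaving out the 6 genes with at least 10% of words shared elsewhere gave 22 below of 40. Leaving out 11 genes that overlap another counted gene in RefSeq gave 19 of 35. This set differs from the genes that share words with an overlapping GENCODE gene, of which PSMA2, PSMA6 and PSMB10 stayed in. No paired analysis was possible because there is 1 library per group, and leaving out a library leaves no comparison.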
